A study of Drosophila melanogaster with 3 samples.

Results

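The regions described here are the X chromosome summits of Sox14-GFP in white prepupae of Drosophila melanogaster. A summit is the position of highest enrichment inside a peak of chromatin immunoprecipitation and sequencing (ChIP-seq), which reads out where a protein sits on DNA. Every peak of the authors' optimal list that lay on X was taken, which gave 1653 of 9316 summits, or 17.7%. The optimal list holds peaks that passed the authors' threshold on the irreproducible discovery rate (IDR), a measure of how well peak ranks repeat between replicates. The other large arms used for comparison were 2L with 1684 summits, 3L with 2038 and 3R with 2209, or 5931 together.

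The 1 group of the study comprised 3 biological replicates of whole animals from a stable transgenic line, in which the Sox14 protein carried GFP at its C-terminal end. Chromatin was sheared to 200 to 800 bp and recovered with an antibody to GFP. Males and females were pooled, the stage was white prepupa and the age in hours is labelled unknown. Whole animals were used, so each summit averages over all tissues, and more cells bearing a site and more protein per site cannot be told apart. Since males carry a single X, copy number and binding on X cannot be told apart either, and no control library was analysed here.

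Sox14 belongs to the Sox family of HMG-box transcription factors, which bind the minor groove at short A/T-rich words such as ACAAT and bend the DNA. Its gene is induced by the steroid hormone ecdysone, which drives the change from larva to pupa. The X of male flies is set apart by dosage compensation, in which the MSL complex, guided by the noncoding RNAs roX1 and roX2 and by GA-rich recognition elements, raises transcription of X-linked genes.

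The sequences of the strongest X summits and of summits holding the words discussed further on are shown first. Each is the summit base with 50 bp on either side, 101 bp in all, read 5′ to 3′ on the plus strand of the RefSeq Release 6 sequence (dm6). Capitals mark every match on either strand to ACAAT (a core Sox word), ACAAAG (a longer Sox word), the repeats GAGAGA and CACACA, the word CGATA and the longer TATCGATA (the DNA replication-related element), the TATA box word TATAAA and the A run AAAAAAAA. Matches to CAGCTG and AGGTCA and to GGTCACAC would also be in capitals but none occurred in these windows. The first window is that of the highest X peak, at the promoter of Ugalt.
Ugalt, chrX:2703843-2703943: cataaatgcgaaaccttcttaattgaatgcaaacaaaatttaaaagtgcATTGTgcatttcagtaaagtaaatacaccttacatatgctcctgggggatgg
lncRNA:CR44619, chrX:12751361-12751461: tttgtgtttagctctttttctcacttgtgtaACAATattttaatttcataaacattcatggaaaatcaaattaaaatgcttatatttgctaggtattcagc
CG32772 intron, chrX:4910326-4910426: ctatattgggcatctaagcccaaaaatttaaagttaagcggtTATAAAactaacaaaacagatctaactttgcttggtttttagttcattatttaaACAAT
CG17896, chrX:493951-494051: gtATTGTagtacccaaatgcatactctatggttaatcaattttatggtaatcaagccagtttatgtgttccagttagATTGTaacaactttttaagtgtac
Ypel, chrX:10209748-10209848: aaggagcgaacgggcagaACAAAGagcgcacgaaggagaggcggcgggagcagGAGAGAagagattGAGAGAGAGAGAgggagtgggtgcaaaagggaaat
Drak intron, chrX:11494907-11495007: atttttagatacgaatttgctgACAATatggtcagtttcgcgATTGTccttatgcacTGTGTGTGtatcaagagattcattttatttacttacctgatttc
Ptpmeg2, chrX:9646068-9646168: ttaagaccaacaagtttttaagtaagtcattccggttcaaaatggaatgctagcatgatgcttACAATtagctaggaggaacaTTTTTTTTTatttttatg
ebo, chrX:476528-476628: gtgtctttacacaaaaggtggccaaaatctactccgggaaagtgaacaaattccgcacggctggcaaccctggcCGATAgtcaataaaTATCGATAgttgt
kirre intron, chrX:3053434-3053534: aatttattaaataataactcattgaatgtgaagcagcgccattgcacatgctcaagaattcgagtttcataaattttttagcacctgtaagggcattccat

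Ugalt, CR44619 and CG32772 gave the highest peaks of different genes, and the CG32772 window is also that of the strongest X peak in an intron. The CG17896 window is that of the strongest peak in intergenic sequence. Ypel and Drak are the strongest with GAGAGA and with CACACA. The windows of Ptpmeg2 and ebo, the strongest with AAAAAAAA and the strongest promoter with TATCGATA, and that of the highest kirre summit were added after the values had been seen. Of the 9 windows, 6 held ACAAT on one strand or the other, beside 27.5% of all X summit windows. The 9 were picked by signal, class or word, so the count describes only them. The kirre window held none of the words.

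Over whole arm lengths X carried nearly as many summits per Mb as the other arms, but distributed them differently between introns and intergenic sequence. The density was 70.2 summits per Mb on X and 70.9 per Mb on 2L, 3L and 3R together. Whole lengths of 3L and 3R include stretches next to the centromere with few summits or none. With each arm measured from its first to its last summit, X had 72.0 per Mb and the other arms 76.8, a ratio of 0.938. This measure does not remove all of these stretches. The span of 3L still includes 3102318 bp without a summit, just before its last summit at 26012506. For each replicate the same number of highest-signal peaks as the optimal list holds was taken. Their density on X was 71.9, 69.2 and 69.3 per Mb in replicates 1, 2 and 3, against 70.9, 70.8 and 70.8 per Mb on the other arms. X was thus the denser in 1 replicate and the sparser in the others, and the mean ratio was 0.990 ± 0.021 (SD, n = 3). An exact sign-flip permutation test over the 3 replicates, two-sided, gave p = 0.5, and 0.25 is the smallest p this design allows.

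The relaxed list of the pooled replicates, which holds 30000 peaks and includes background by design, was denser on X. It had 246 summits per Mb on X and 226 per Mb on the other arms. Of the 5781 relaxed X peaks 28.6% were in the optimal list, against 31.3% of 18957 on the other arms, where the share over the whole genome was 31.1%.

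**Figure D1:**
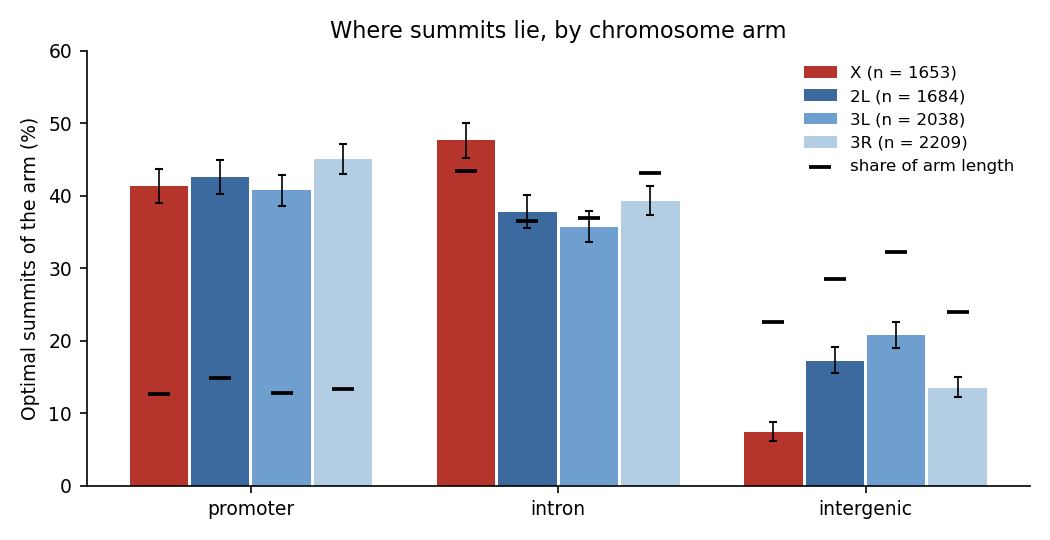
Share of optimal summits (y axis, percent of the arm's summits) at promoters, in introns and in intergenic sequence (x axis) on X, 2L, 3L and 3R; error bars are Wilson 95% intervals for counting, and black ticks give the share of the arm's length in that class. The X bar is the highest for introns, at 47.7%, and the lowest for intergenic sequence, at 7.38%.

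Introns held more of the X summits and intergenic sequence fewer. Each summit was put in 1 class, with promoters (within 500 bp of an annotated transcription start site, TSS) taking precedence over exons, introns and intergenic sequence. Introns held 788 X summits, or 47.7% (Wilson 95% interval 45.3 to 50.1%, which covers the counting of summits only), and 37.6% (36.4 to 38.9%) on the other arms. Intergenic sequence held 122 X summits, or 7.38% (6.22 to 8.74%), and 17.1% (16.1 to 18.0%) elsewhere. Singly, the intergenic share was 17.2% on 2L, 20.8% on 3L and 13.5% on 3R, all above the X value. The intron shares of 37.8%, 35.7% and 39.3% on these arms were all below it.

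The same differences appeared in each replicate. The intron share was 45.2%, 47.6% and 45.8% on X, against 36.4%, 38.0% and 35.9% on the other arms, in replicates 1, 2 and 3. The groups of values did not overlap, and the differences averaged 9.43 ± 0.56 percentage points (SD, n = 3). The intergenic share was 7.80%, 6.63% and 6.92% on X, against 17.9%, 15.5% and 16.5% on the other arms. This difference averaged -9.53 ± 0.60 percentage points (SD, n = 3) and again the values did not overlap. For both classes the difference had the same direction in 3 of 3 replicates and was larger than the spread between them, yet the exact sign-flip permutation test could give no less than p = 0.25 (adjusted p = 0.357 over the 10 comparisons tested).

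**Figure D2:**
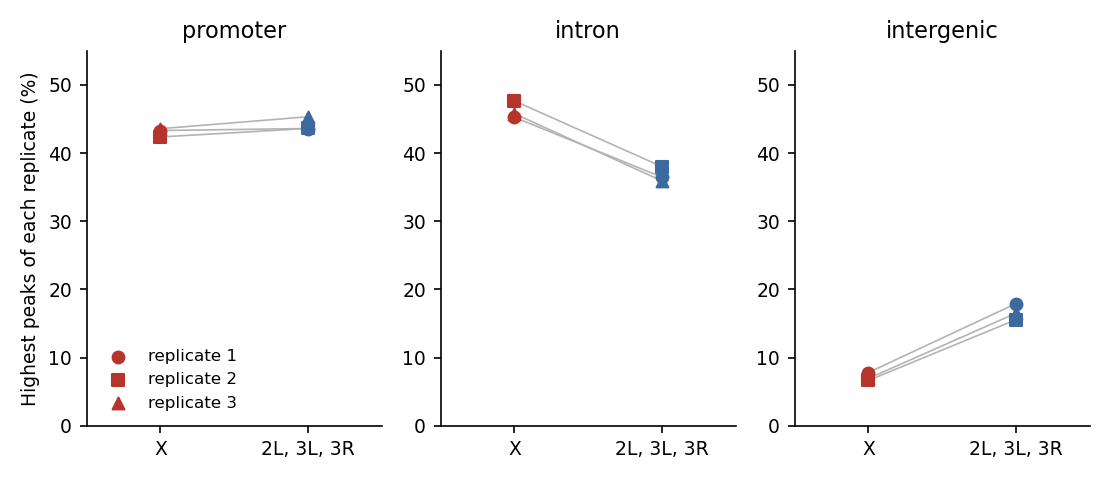
Share of each replicate's highest peaks (y axis, percent) at promoters, in introns and in intergenic sequence, on X (left, red) and on 2L, 3L and 3R together (right, blue); each line joins the values of 1 replicate. The lines for introns all run down from X and those for intergenic sequence all run up, while promoters differ by at most 1.75 percentage points.

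The annotation of X differs in the same direction but by less. Introns made up 43.3% of the length of X and 39.2% of the other arms, and intergenic sequence 22.6% and 28.0%. The single arms differed: introns were 36.5% of 2L, 37.0% of 3L and 43.1% of 3R. Intergenic sequence was 28.6%, 32.3% and 23.9% of these arms, so 3R was close to X in both. Set against length, the share of summits was 1.10 times the share of sequence for X introns and 0.961 times for introns elsewhere. By single arm this intron ratio was 1.035 on 2L, 0.966 on 3L and 0.912 on 3R. In the pooled relaxed list it was 1.18 on X and 1.19 on 2L, so X was not the higher there. For intergenic sequence the ratio in the optimal list was 0.327 on X and 0.609 on the other arms. The lengths of genes longer than 20 kb summed to 44.5% of X, against 36.9% of 2L, 36.7% of 3L and 42.8% of 3R. The host genes of the intronic X summits were long as well, with a median length of 36881 bp against 32386 bp on the other arms. The distance of intronic summits from the nearest TSS was much alike, with medians of 3051 bp on X and 3276 bp elsewhere.

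The class difference also ran through the range of signals. The signal is the authors' own score for each peak, on a separate scale in every list, and is used here only to rank peaks within a list. Among the 551 X summits of highest signal 49.7% were intronic and 5.26% intergenic, against 35.8% and 14.9% of the 1977 highest on the other arms. Among the 551 X summits of lowest signal the shares were 47.2% and 9.44%, against 38.7% and 18.7% elsewhere. Intergenic X summits were the weakest of the main classes, with a median signal of 134, against 161 for introns and 158 for promoters of X. Intergenic summits were also the weakest on the other arms, at 154, against 161 for introns and 171 for promoters. Weak peaks of the relaxed list outside the optimal list, which include background, had an intergenic share of 15.0% on X and 25.7% on the other arms. Their intron share was 52.5% on X and 46.4% elsewhere. Set against length, introns there stood at 1.21 on X, 1.19 on the other arms together and 1.26 on 2L, so that contrast was not seen.

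Promoters held 683 X summits, or 41.3% (39.0 to 43.7%), and 42.9% (41.6 to 44.1%) on the other arms together. Singly, the promoter share was 42.5% on 2L, 40.7% on 3L and 45.1% on 3R, so 3L stood below X. Promoters are 12.6% of X by length, so their share of summits was 3.28 times their share of sequence, against 3.16 times elsewhere. The promoter share in replicates 1, 2 and 3 was 43.3%, 42.4% and 43.6% on X and 43.6%, 43.6% and 45.3% on the other arms. X was lower in 3 of 3 replicates by a mean of only 1.10 points (the difference was -1.10 ± 0.74, SD, n = 3), and the highest X value equalled the lowest value elsewhere to 3 digits (exact sign-flip permutation p = 0.25, adjusted p = 0.357).

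Start sites of both strands near a promoter summit had a lower share on X. TSSs on both strands stood within 500 bp of 177 of the 683 X promoter summits, or 25.9% (22.8 to 29.3%), against 32.1% (30.4 to 34.0%) on the other arms. The single arms had 29.6%, 31.0% and 34.9% on 2L, 3L and 3R. Upstream of the nearest TSS lay 68.2% of the X promoter summits and 72.1% of the others. The nearest TSS was that of a noncoding gene for 5.56% on X and for 8.18% elsewhere. These 3 shares were not tested.

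Summits in 3′ UTRs were few but more frequent on X. There were 24 on X, or 1.45%, and 32 on the other arms, or 0.540%. The replicates had 1.48%, 1.41% and 1.41% on X, against 0.387%, 0.625% and 0.540%, with no overlap. This class was picked out after its values had been seen (exact sign-flip permutation p = 0.25, unadjusted). Annotated 3′ UTR sequence outside promoters also took a larger share of X, 6.57% against 4.74%. The strongest of these summits lay in CG7872 at rank 302 of the optimal list, followed by stas at rank 798. Coding exons held 4 X summits, 2 of them in bif, although they made up 13.2% of X.

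Signal ranks on X were close to those of the whole list. The median rank, as a percentile of the list with 0 the strongest, was 51.7 on X and 49.6 on the other arms. The difference between X and the other arms was 3.27, -0.24 and 3.64 percentile points in replicates 1, 2 and 3, so replicate 2 had the opposite sign (exact sign-flip permutation p = 0.5). X held 14 of the 100 strongest summits (14.0%, Wilson 95% interval 8.53 to 22.1%), 95 of the strongest 500 and 186 of the strongest 1000. In 10 equal steps down the ranking the share on X ran between 15.3% and 20.7%, around its 17.7% of the list.

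X summits came back in the replicates as often as others did. A summit was counted as recovered when one of a replicate's highest peaks had its own summit within 100 bp. All 3 replicates recovered 969 X summits, or 58.6% (56.2 to 61.0%), and 58.5% (57.2 to 59.7%) on the other arms. On X the share was 61.0% for introns, 57.1% for promoters and 54.9% (46.1 to 63.5%) for intergenic sequence. Only 17 X summits were recovered by no replicate.

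The strongest X summits lay both at promoters and in introns. Going down the X ranking, the first 20 different protein-coding genes by nearest TSS had signals from 1044 to 2992. Their summits lay 10 times at promoters, 9 times in introns and 1 time in intergenic sequence. The highest peak, at summit 2703893, was 41 bp upstream of Ugalt, which encodes a transporter of UDP-galactose into the Golgi. It had rank 5 of the whole optimal list and ranks 5, 2 and 5 in replicates 1, 2 and 3, so all libraries placed it near the top.

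The next peak, at rank 18 with a signal of 2140, lay beyond the 3′ end of CG4004, 456 bp from the start of the noncoding gene CR44619 and inside the noncoding gene Vinr. CR44619 had another summit at rank 29, in its own exon. The assignment of both to CG4004 is by distance alone, which was 5094 bp for the first and 6063 bp for the second.

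Metabolic and lipid enzymes among the 20 were LPCAT (an acyltransferase of phospholipids, rank 32), Zw (glucose-6-phosphate dehydrogenase, rank 48), norpA (phospholipase C of the eye, rank 76), Gapdh2 (a glycolytic dehydrogenase, rank 92) and pdgy (an acyl-CoA synthetase, rank 124). The Gapdh2 summit lay 155 bp upstream of the TSS and ranked 105, 101 and 87 in the 3 replicates. The Zw summit was 1125 bp from the nearest protein-coding start of that gene and inside an intron, with ranks 45, 53 and 58.

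Signalling and chromatin genes among the 20 included Raf (the kinase between Ras and MEK, rank 55), sgg (glycogen synthase kinase 3 of the Wnt pathway, rank 120), Ptpmeg2 (a tyrosine phosphatase, rank 131), ph-p (a subunit of the Polycomb complex PRC1, rank 31) and Tlk (the Tousled-like kinase, rank 70). The ph-p summit had ranks 26, 32 and 25 in replicates 1, 2 and 3. CG32772 at rank 22, CG3726 at rank 39, bves at rank 81, MFS10 at rank 115, CG17896 at rank 116 and Pits at rank 128 completed the list with Ypel and Hr4.

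Most of these places repeated closely, with 1 exception. The Ypel summit, whose window above is the GA-rich one, ranked 350, 36 and 134 in replicates 1, 2 and 3 and 104 in the optimal list. Its rank of 350 was the lowest that any of the 20 had in any replicate.

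**Figure D3:**
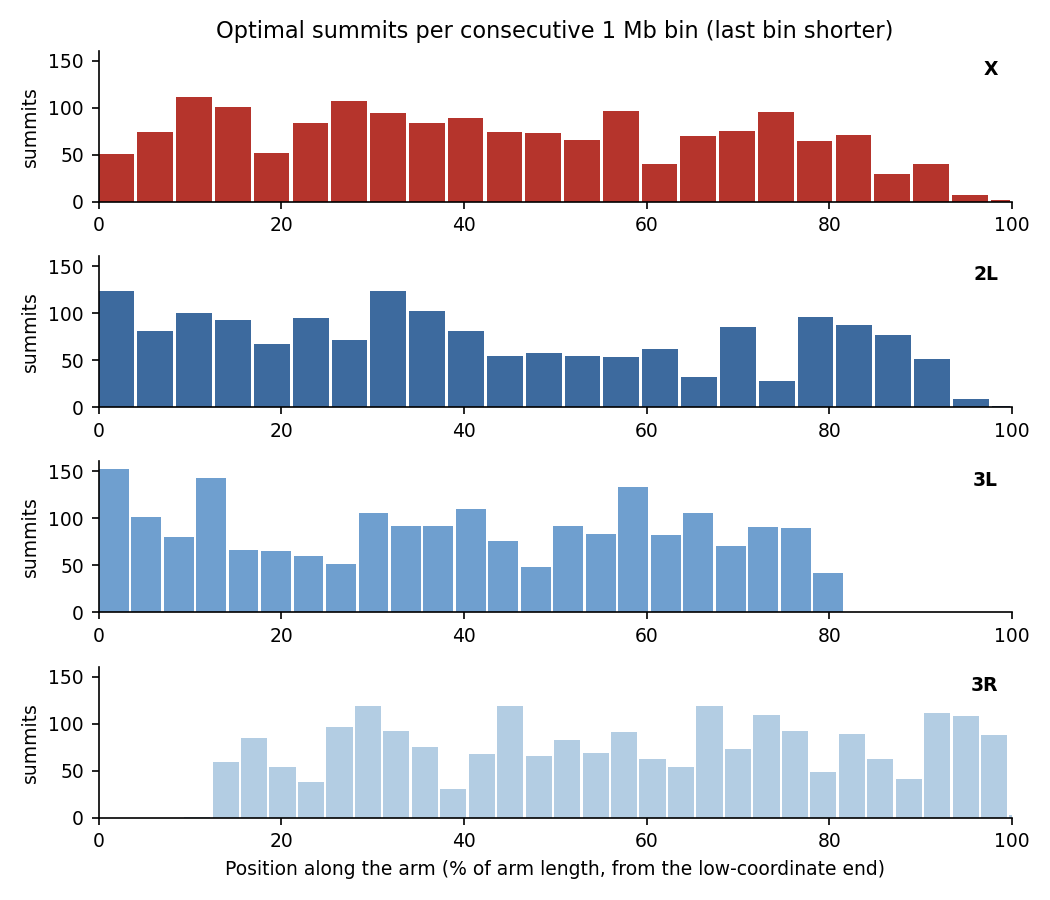
Number of optimal summits (y axis) in consecutive 1 Mb bins along X, 2L, 3L and 3R, with position given as percent of arm length (x axis) from the low-coordinate end. X bins hold between 7 and 111 summits until the final bin, which is shorter and holds 2.

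Over all full bins of 1 Mb, summit counts varied less along X than along the other arms. The 23 full bins of 1 Mb held from 7 to 111 summits, with a median of 74. The coefficient of variation between bins was 0.362 on X, against 0.395 on 2L, 0.592 on 3L and 0.515 on 3R. Bins with under 10 summits numbered 1 on X, against 1 on 2L, 5 on 3L and 4 on 3R, and those of 3L and 3R lay at the end next to the centromere. These poor bins enter the coefficients of 3L and 3R, which were not computed without them, so a more even spread outside them is not shown. The densest bin of X was that from 2 to 3 Mb, with Ugalt, ph-p, Raf and sgg, and it held 110, 113 and 112 of the highest peaks of replicates 1, 2 and 3. Bins from 3 to 4 Mb and from 6 to 7 Mb followed with 101 and 107 summits. They differed in kind, since 78 of the 101 were intronic while 53 of the 107 were at promoters.

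The end of X next to the centromere was the poorest. The bin from 22 to 23 Mb held 7 summits, with 9, 7 and 10 of the highest peaks in the replicates, and the bin from 20 to 21 Mb held 30. The first summit of X was at 142159 and the last at 23105896. The longest stretch without a summit ran for 824 kb from 21631731 to 22455791. It contained all or part of 25 protein-coding genes, of which wap was the longest, and only 4 relaxed peaks.

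The next longest stretches were 244, 225, 219 and 217 kb. Their longest genes were dpr8 (an immunoglobulin-family receptor of neurons, 140126 bp), CG42346, CG42594 and Ten-a (a teneurin, 291517 bp). Ten-a lay partly inside its stretch and had 8 summits in the rest of the gene, the best at rank 376.

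Summits also bunched locally. In windows of 50 kb the densest places on X held 21 summits each, and there were 3 of them. The window at 2288448 to 2336694 held the gene Raf, with 18 summits in the gene and 1 kb on either side, and CG2865. That at 3671832 to 3720683 held Mnt (the antagonist of Myc, 17 summits), Rala (a small GTPase, 3) and Parg (poly(ADP-ribose) glycohydrolase, 2). That at 7291316 to 7338768 held CG1677 (21 in the window), brk (a repressor of Dpp targets, 3) and Atg5 (of the autophagy machinery, 2). A summit where genes overlap was counted for each of them.

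The highest peaks of replicates 1, 2 and 3 put 18, 19 and 21 summits in the Raf window, 19, 20 and 20 in the Mnt window, and 20, 19 and 22 in the CG1677 window. Windows with 19 summits followed at CG3726, CG16721 and Act5C (a cytoplasmic actin) and at Smr (a corepressor of nuclear receptors), CG4004 and Agpat1. Denser places existed on every other arm, with 27 summits in the densest 50 kb of 2L, 24 on 3L and 30 on 3R. In windows of 100 kb the Mnt window took in much of Tlk and held 33 summits, the most on X.

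**Figure D4:**
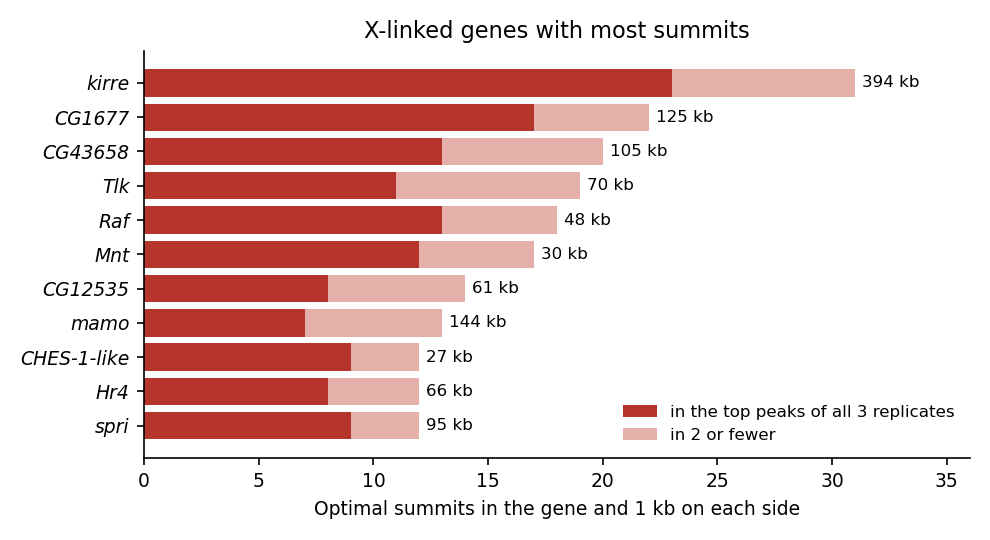
X-linked protein-coding genes with at least 12 optimal summits (x axis: summits in the gene and 1 kb on each side), with gene length beside each bar; the dark part counts summits recovered in all 3 replicates. The kirre bar is the longest, with 31 summits of which 23 came back in all replicates.

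Most genes with many summits on X were long and held them in introns. The leading gene was kirre with 31 summits over 394 kb, followed by CG1677 with 22, CG43658 with 20, Tlk with 19, Raf with 18 and Mnt with 17. No summit lay within 1 kb of a TSS of CG1677, the nearest being 5121 bp away. The highest in its span, at rank 285, was a promoter summit 275 bp from the start of CBP. The span of CG1677 also contains other genes such as Atg5, so a summit there need not concern CG1677. CG12535 had 14 and mamo (a zinc finger factor) 13. CHES-1-like (a forkhead factor), Hr4 and spri (a guanine nucleotide exchange factor) had 12 each, and spri is named because it ties for the last place. Per length the order changed: Mnt had 5.33 summits per 10 kb, CHES-1-like 4.13 and Raf 3.57, against 0.783 for kirre.

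The 10 leading genes held 178 of the X summits, or 10.8%. The same share was 9.44% on 2L, 8.19% on 3L and 6.65% on 3R, where the gene with most was ush with 23, Eip75B with 30 and tara with 20. In all, 938 of 2196 X protein-coding genes had a summit in the gene or within 1 kb of it, and 18 genes had 10 or more.

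**Figure D5:**
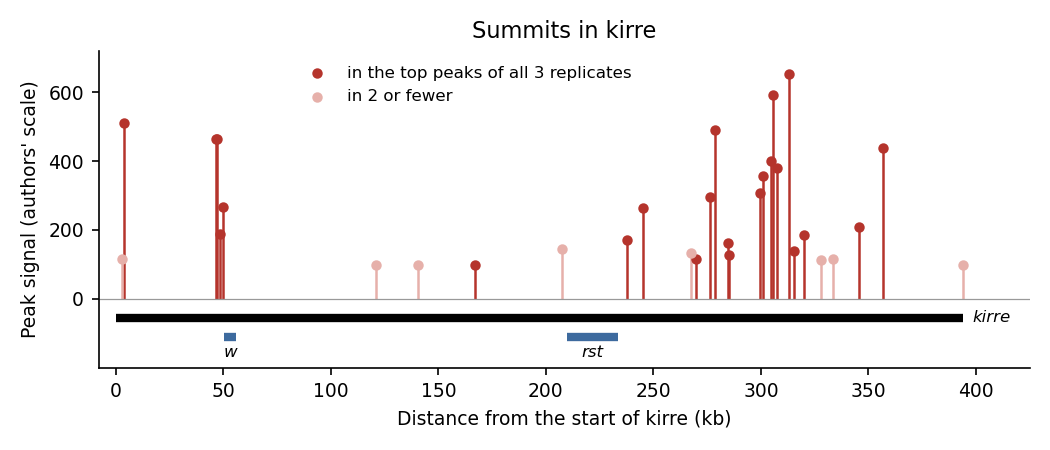
Signal of each optimal summit in kirre (y axis, the authors' scale in the optimal list) by distance from the start of the gene (x axis, kb), with bars below for kirre and for w and rst, which lie inside its span. The 2 highest summits stand at 306 and 313 kb from the start.

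The gene kirre encodes an immunoglobulin-family adhesion protein of founder myoblasts, and rst its close relative. The annotated span of kirre, 2740384 to 3134532, also contains 21 other protein-coding genes, among them rst and w, so a summit in the span need not concern kirre. Its summits had signals from 97.0 to 653 with a median of 190. In the part of the gene farther from its start lay 22, against 9 in the nearer part of equal length. A run of summits between 299.6 and 333.3 kb held the highest one, at 313.1 kb, which ranked 304, 719 and 336 in replicates 1, 2 and 3 and 409 in the optimal list.

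The nearest summit to any TSS of kirre was 2326 bp away, and none lay within 1 kb of one. The span's 5 promoter summits were thus at starts of other genes, and the nearest protein-coding genes to them were Syx4, CG32795, CG3603 and N. The gene rst had no summit in its body or within 1 kb of it. The gene w (white, an importer of eye pigment precursors) had 1 beyond its 3′ end, at 2790305, which was the promoter summit of CG32795.

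The class difference was about as large without the genes that held most summits. Without the summits of the 10 leading genes of each arm, a check added after the data had been seen, introns held 43.5% on X and 34.1% elsewhere. Intergenic sequence then held 8.14% on X and 18.4% elsewhere.

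Of the protein-coding genes of X, 770 of 2196 had a summit of the optimal list no more than 1 kb from a TSS, or 35.1% (33.1 to 37.1%). On the other arms 2949 of 8817 did, or 33.4%, and over the whole genome 33.5%. Singly, the share was 29.7% on 2L, 35.0% on 3L and 35.1% on 3R, so 3L and 3R were level with X. Replicates 1, 2 and 3 gave 37.3%, 34.7% and 35.9% on X, against 35.8%, 33.0% and 35.0% elsewhere. The ranges overlapped, although X was the higher within each replicate (exact sign-flip permutation p = 0.25, adjusted p = 0.357). The arms were less alike in the relaxed list, where 59.7% of X genes and 49.4% of the others had a summit that close.

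Of 9 genes of dosage compensation and sex determination on X, 1 had a TSS with a summit closer than 1 kb, beside 35.1% of all X protein-coding genes. The 9 include the noncoding genes roX1 and roX2, which the 35.1% does not cover. With 9 genes and no test the count only describes them. That gene was Sxl, the switch gene of sex determination, with summits at ranks 1978 and 4740, both recovered in all replicates, and an intronic one at rank 1518. The noncoding RNA gene roX1 had none in the gene or within 1 kb of it, and no relaxed summit within 1 kb of its TSSs. At roX2 a summit at 11580530, rank 2874, lay just beyond the 3′ end and was 242 bp from the start of nod, a kinesin-like gene. The acetyltransferase gene mof, and the X-linked signal genes sc, sisA, run and upd1, had no optimal summit in the gene or within 1 kb.

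Of 12 genes of the ecdysone response on X, 2 had a summit within 1 kb of a TSS and 4 had one in the gene or within 1 kb of it, beside 35.1% and 42.7% of all X protein-coding genes. These were usp, which encodes the partner of the ecdysone receptor, with 3 summits and a best rank of 1706, and br, the Broad-Complex, with 1 such summit at rank 7613 and 6 in the whole gene. The nuclear receptor gene Hr4 had 12 summits, all intronic, the best at rank 63 with ranks 74, 56 and 90 in replicates 1, 2 and 3. Smr had 9, all away from its TSSs. The ecdysteroid enzyme genes phtm and Cyp18a1 had no optimal summit. Nor did the salivary glue gene Sgs4 and its neighbours Pig1 and ng1 to ng4.

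Other lists differed in their share with a summit near a TSS, against 35.1% of all X protein-coding genes. Since their members were chosen with earlier results known, the counts describe the lists and were not tested. Of signalling and growth genes 13 of 23 had one, with sgg at rank 120 and Raf at rank 361 for the best summit within 1 kb of a TSS. Myc, the growth regulator, had none there but an intronic summit at rank 159. N, the Notch receptor, had a weak promoter summit at rank 8384 and an intronic one at rank 592. The genes dsh, hop, upd1, upd2 and upd3 had no optimal summit.

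Chromatin and nuclear genes had 10 of 16, among them Top1 (topoisomerase 1, rank 1241), ph-d (rank 1448) and fs(1)h (a BET bromodomain protein, rank 1538) beside ph-p. Adhesion genes had 8 of 13. The integrin gene mew had 10 summits in all, the one near its TSS at rank 1471, and mys, the beta integrin, had one at rank 2954. Autophagy and cell death genes had 6 of 7, with Traf6 at rank 1237, Atg8a at rank 1618 and Atg5 at rank 4573, and Atg101 was the member without. SkpA counted through a summit at rank 317 that lay 975 bp from its TSS and 201 bp from that of Hmt4-20.

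Neuronal genes had 7 of 18, and the strongest summits within 1 kb of a TSS were those of elav (an RNA-binding protein of neurons, rank 226, with 204, 243 and 227 in the replicates) and dnc (the cAMP phosphodiesterase, rank 236). The intronic norpA summit at rank 76, farther from a TSS, was stronger. The channel genes para, Sh, cac and eag had no optimal summit in the gene or within 1 kb. Patterning factors had 7 of 21, none of these summits better than rank 3238, which was that of disco. Bx, a LIM-domain cofactor, had 11 in all, the best an intronic one at rank 1114. Eye colour and pigment genes had 2 of 8. None of the 9 chorion, yolk and testis genes, Yp1, Yp2 and Yp3 among them, had an optimal summit in the gene or within 1 kb.

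Of the short DNA words sought at summits, the Sox words, GAGAGA and CGATA had close shares on X and elsewhere, while runs of A had higher shares on X. TATCGATA was also higher on X, but with overlap between the replicate ranges and without a test. Each word was sought on both strands in the windows of 101 bp, where ACAAT and ACAAAG share 4 letters and can overlap, as can CGATA and TATCGATA. ACAAT was in 27.5% of X windows (25.4 to 29.7%) and 28.7% (27.6 to 29.9%) of the others. Singly, the share was 27.0% on 2L, 28.7% on 3L and 30.0% on 3R, so 2L stood below X. All consecutive windows of that length along the arm held ACAAT in 25.0% of cases on X and 25.8% elsewhere. ACAAAG was in 12.1% of X windows and 11.3% of the others, against 6.79% and 7.33% of all windows along the arms. The Ptpmeg2 window above holds ACAAT and the Ypel window ACAAAG. The word ACAAT was less frequent on X than on the other arms together in 3 of 3 replicates. The mean difference was -1.67 ± 1.01 points (SD, exact sign-flip permutation p = 0.25, adjusted p = 0.357).

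GAGAGA, the core of the GA-rich recognition elements of the MSL complex, was in 5.26% of X windows (4.29 to 6.45%) and 4.96% (4.43 to 5.54%) of the others. In replicates 1, 2 and 3 it was in 4.73%, 6.45% and 6.99% on X, against 4.11%, 5.99% and 5.40% elsewhere. The ranges overlapped, with X higher in 3 of 3 (exact sign-flip permutation p = 0.25, adjusted p = 0.357). CACACA was in 9.38% of X windows and 7.89% of the others, but windows 1000 bp to the side held it in 10.6% and 8.24%. The replicates had 8.80%, 11.3% and 11.0% on X, against 6.86%, 9.18% and 8.59%, so X was higher within each although the ranges overlapped (exact sign-flip permutation p = 0.25, adjusted p = 0.357). CGATA was in 16.3% and 15.2%, with replicate 2 in the opposite direction (p = 0.5 by the same exact test).

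Runs of 8 A on either strand were in 182 X windows, or 11.0% (9.59 to 12.6%), and in 7.06% (6.44 to 7.74%) of the others. The replicates had 10.3%, 12.0% and 10.8% on X, against 6.99%, 6.75% and 6.58%, without overlap. This word was singled out after its values had been seen (exact sign-flip permutation p = 0.25, unadjusted). It is commoner on X at large: all windows along the arm held it in 8.34% of cases on X and 4.93% elsewhere, and windows 1000 bp to the side of summits in 7.38% and 5.26%. The Ptpmeg2 window above shows such a run.

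TATCGATA, the palindrome bound by DREF at promoters of housekeeping genes, was in 36 of 683 X promoter windows, or 5.27%, and in 2.83% of the others. By single arm the promoter share was 1.54% on 2L, 3.37% on 3L and 3.31% on 3R, so 2L was the lowest. With every class taken it was in 2.30% of X windows (1.68 to 3.14%) and 1.72% (1.26 to 2.35%) of those on 3R. Over all classes replicates 1, 2 and 3 had 2.60%, 1.23% and 1.96% on X, against 1.65%, 1.01% and 1.50%, so the ranges overlapped although X was higher in each. Of all windows along the arms 0.350% held it on X and 0.241% elsewhere. The ebo window above, whose summit lies 1 bp from the TSS, holds the word at the right. CAGCTG was in 3.81% of X windows and 4.42% of the others, with 3.43%, 3.31% and 3.98% on X in replicates 1, 2 and 3, against 3.99%, 4.68% and 4.50%. TATAAA was in 16.3% of X windows and 18.3% of the others, with 18.4%, 13.5% and 16.1% on X in the replicates, against 21.0%, 16.4% and 17.4%. Both words were lower on X than on the other arms together in 3 of 3 replicates, without overlap for CAGCTG and with overlap for TATAAA. Singly, CAGCTG was in 5.40% of windows on 2L, 4.32% on 3L and 3.76% on 3R, so 3R was as low as X. Neither these 2 words nor TATCGATA were tested. The base composition of the windows was much alike, with 36.7% G and C on X, against 36.1%, 36.1% and 36.5% on 2L, 3L and 3R.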

How the data were processed

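Peaks of 3 biological replicates were analysed. The authors deposited, for build dm6, a relaxed list of 30000 peaks for each replicate and for the pooled replicates, and 1 optimal list of 9316, per the labels and the deposited text files. Each gives a signal per peak, a −log10 q value, both on the authors' own scale, and a summit offset. How reads were aligned, what called the peaks and at which IDR they were kept is not given in the sources used here. The lowest optimal signal was 89.8, which is also that of the peak at the same place in the pooled ranking, so the optimal list is the top of the pooled list. Read depth is unknown and intervals cover counting only. The dm3 optimal list served only as an alternative.

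Summits were placed on RefSeq Release 6 sequence and Ensembl release 115 genes (BDGP 6.54). Replicates were compared with Python 3.11.15 (numpy 2.4.6, pandas 2.3.3, scipy 1.17.1) by an exact two-sided sign-flip permutation test, with Benjamini-Hochberg adjustment over 10 comparisons. The statistics were tested on simulated data. Neighbouring summits and genes are not independent, so no test was run across them, and the nearest gene need not be the one acted on.

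Genes named are the first 20 down the X ranking, the 10 with most summits, the 3 leading in each of the 5 densest 50 kb windows, the longest in each of the 5 longest empty stretches, list members on X, and roX1, roX2, kirre and rst; others (the genes of the strongest exon summits, the leading genes of other arms, genes beside a named summit, and Ptpmeg2, ebo and Drak as sequences) were chosen after their values were seen. The members and lists were chosen with earlier results of these data known. Alternatives covered peak set, each replicate left out, promoter and gene windows, arm length, build, motif window and the arms compared.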

Additional observations from a re-analysis of the deposited data

How the results depend on the processing

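Of 119 alternatives run over 12 results, 108 kept the direction and 11 reversed it, and no test could give p under 0.25 with 3 replicates. The intron difference kept its sign in 13 of 13, from 7.44 points in the pooled relaxed list to 12.4 in the upper part of the optimal list, and the intergenic one in 13 of 13, from -13.4 points against 3L alone to -6.16 against 3R alone, comparisons added after seeing the data. Both are differences between shares of summits, not set against the length of each class. CGATA, 3′ UTR and AAAAAAAA kept their sign in all alternatives run. In the pooled relaxed list the density ratio was 1.08 and the promoter difference 1.55 points. The rank difference was -1.25 in the upper part of the optimal list and -0.29 outside promoters. The share of genes with a summit differed by -2.22 points in that upper part and -0.60 among summits in the top peaks of all 3 replicates. At summits outside promoters GAGAGA differed by -0.23 points, in the upper part CACACA by -0.0041, and 1000 bp to the side of summits ACAAT by 2.09. The cause was not tested. Leaving out each replicate meant the summits shared by the remaining pair, a smaller set. The ranges were then 0.980 to 0.999 for density, -2.24 to -1.87 for promoters, 11.0 to 11.4 for introns, -10.7 to -9.99 for intergenic sequence and 1.67 to 2.27 for rank. For genes with a summit the range was -0.55 to 0.14, for GAGAGA 0.857 to 1.03, for CACACA 0.318 to 0.825, for CGATA 0.768 to 1.42 and for ACAAT -3.30 to -1.60. The gene share without replicate 1 was -0.29 and without replicate 3 -0.55, where the change of set and the replicate cannot be told apart. With arms measured from first to last summit the density ratio was 0.938, and with the dm3 list measured so, added later, 0.928.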
